A study of Mus musculus with 2 samples.

Results

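The mitotic genes described here encode the parts of the machinery that separates chromosomes: the centromere and its kinetochore, the spindle checkpoint, the spindle and the apparatus of cytokinesis. They were 49 of 19751 named genes on the array. The members were every gene whose symbol in the platform's probe annotation was Cenp followed by 1 letter (20 genes) and 29 further genes named for their role in mitosis. All 49 were measured, each by 1 probe set of its own. One of them, listed under the older symbol Sgol1, carried the symbol Sgo1 there. Cenpc1 and Itgb3bp, which encode the centromere proteins CENP-C and CENP-R, have symbols outside that pattern and were not counted.

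Expression was measured by microarray in fibroblastic reticular cells (FRCs), the fibroblasts that build the scaffold of lymph nodes. The series has 1 group of 2 arrays, called replicate 1 and replicate 2 after the titles in the labels. The donors were C57BL6/J mice, 4 to 6 weeks old and without treatment, and their lymph node stromal cells were expanded in αMEM (10% fetal calf serum) over 7 to 10 days. The labels call the FRCs purified without giving the step, and no label tells whether each replicate had its own animals or its own culture, which leaves a technical share of the spread possible.

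The centromere is marked by nucleosomes that hold the histone variant CENP-A, on which the constitutive centromere-associated network assembles. In mitosis the kinetochore forms on this base and its Ndc80 complex grips spindle microtubules, while the checkpoint proteins hold back the anaphase-promoting complex (APC/C) until all chromosomes are attached. Many of these genes are transcribed mainly in late S phase, G2 and mitosis, so their mRNA is known as a readout of dividing cells, and lymph node fibroblasts divide in culture.

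Such timing has been linked to promoter elements, chiefly the CHR (cell cycle genes homology region), which is bound by MuvB complexes, and CCAAT boxes, which are bound by NF-Y. The stretches below are the 120 bases that end just before an annotated start of 8 members, from RefSeq on build GRCm38.p6. CHR letters (TTTGAA or TTTAAA) and CCAAT letters on either strand are in capitals. For a member with several starts, the stretch with most of these elements is shown. The first 5 belong to genes that were higher on replicate 1, Cenpn had a smaller difference, and Bub3 and Pttg1 had almost none. They were chosen after their values were seen.
Plk1, chr7:122159315-122159434, plus strand: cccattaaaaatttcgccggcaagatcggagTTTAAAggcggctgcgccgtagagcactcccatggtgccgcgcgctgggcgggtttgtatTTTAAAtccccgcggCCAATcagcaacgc
Prc1, chr7:80294356-80294475, plus strand: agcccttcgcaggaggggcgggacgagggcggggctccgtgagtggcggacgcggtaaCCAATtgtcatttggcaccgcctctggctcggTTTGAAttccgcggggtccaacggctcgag
Top2a, chr11:99024190-99024309, minus strand: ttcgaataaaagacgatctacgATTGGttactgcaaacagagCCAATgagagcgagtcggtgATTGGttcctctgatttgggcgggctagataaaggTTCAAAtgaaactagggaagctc
Cdc20, chr4:118437344-118437463, minus strand: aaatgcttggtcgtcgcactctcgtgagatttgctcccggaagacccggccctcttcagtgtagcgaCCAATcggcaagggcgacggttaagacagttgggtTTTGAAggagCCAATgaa
Espl1, chr15:102296173-102296292, plus strand: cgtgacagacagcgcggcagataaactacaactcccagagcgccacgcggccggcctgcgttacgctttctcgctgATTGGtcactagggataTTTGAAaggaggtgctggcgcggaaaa
Cenpn, chr8:116921620-116921739, plus strand: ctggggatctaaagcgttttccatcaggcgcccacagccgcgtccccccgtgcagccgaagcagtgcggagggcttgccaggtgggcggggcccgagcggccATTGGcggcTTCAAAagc
Bub3, chr7:131560250-131560369, plus strand: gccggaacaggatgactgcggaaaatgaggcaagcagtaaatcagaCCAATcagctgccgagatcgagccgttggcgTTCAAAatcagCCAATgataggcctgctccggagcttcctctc
Pttg1, chr11:43425982-43426101, minus strand: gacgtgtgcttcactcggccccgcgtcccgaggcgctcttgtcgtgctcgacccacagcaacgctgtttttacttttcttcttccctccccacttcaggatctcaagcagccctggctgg
In Prc1 the CHR began 30 bases before the start, in Top2a 23, in Cdc20 18, in Espl1 27 and in Cenpn 9. Bub3 also had a CHR, 43 bases before the start, between 2 CCAAT boxes, whereas the Pttg1 stretch held neither element. Prc1 and Bub3 each had 2 annotated starts. Counted from the start not shown, the CHR began 5 bases before it in Prc1 and 167 bases before it in Bub3.

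Levels are log2 intensities, computed from the deposited linear intensities. Background was set on each array from 1035 olfactory receptor probe sets, at their 95th percentile, which was 7.15 on replicate 1 and 7.17 on replicate 2, and a gene counted as detected when it passed the limit on both arrays. Of the 49 members, 46 (93.9%) were detected, against 67.3% of all named genes. A stricter limit from 36 probe sets of genes restricted to other organs, 8.21 and 8.27, was passed by 29 members (59.2%), against 48.4% of all named genes. The members that were not detected were Cenpl, Cenpp and Cenpw, all of the centromere network. Cenpp had log2 levels of 6.50 and 6.03 on replicates 1 and 2, Cenpl had 7.05 and 6.83, and Cenpw had 7.18 and 6.95, so Cenpw passed on replicate 1. Levels of different genes were not set against each other, since probe sets differ in how strongly they bind.

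**Figure D1:**
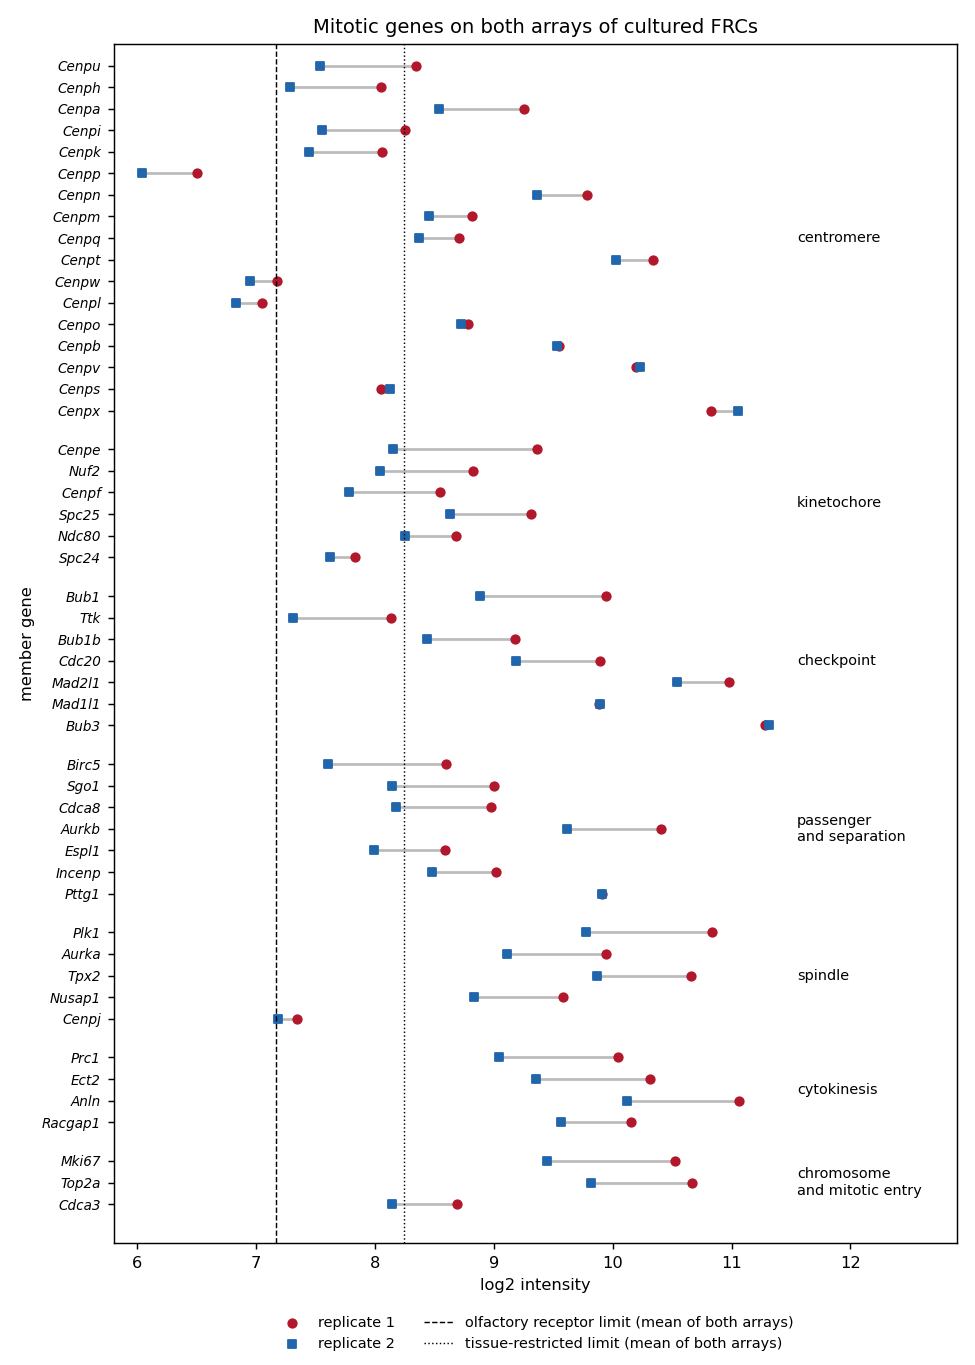
Log2 intensity (x axis) of the 49 members (y axis), grouped by structure, on replicate 1 (red circles) and replicate 2 (blue squares), with the mean of both arrays for each background limit as vertical lines. In 43 of the 49 genes the replicate 1 circle lies to the right of the replicate 2 square.

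The labelled cell type was checked against its markers. All 14 FRC markers were detected, among them podoplanin (Pdpn), with 12.60 and 12.73 on replicates 1 and 2. The stricter limit was passed by 12 of the 14 on both arrays. It was not passed by Ccl19 (8.17 and 7.85) and Il7 (8.66 and 7.74). Of 12 leukocyte markers 3 were detected (Cd3e, Cd8a and Csf1r), of 8 endothelial markers 4 and of 5 epithelial markers 2, and 0 of these 25 passed the stricter limit. Ptprc, the pan-leukocyte gene, was below the limit with 6.41 and 6.47. The summed intensity of the leukocyte markers was 1295 on replicate 1 and 1280 on replicate 2, that of the endothelial markers 1431 and 1471, and that of the FRC markers 53089 and 61312. These sums set the arrays side by side within a list, and not 1 list against another. The leukocyte sum is mostly background, with 9 of the 12 markers not detected, and Acta2 alone gave 17083 and 16530 of the FRC sums.

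The arrays differed in the mitotic genes. Log2 differences below are replicate 1 minus replicate 2. They cover 13577 genes, 46 members included, with an average over both arrays above 7.16, the average of both limits. The median difference of the members was 0.71, a fold of 1.63, against -0.0046 for all 13577 genes. Of the 46 members 40 were higher on replicate 1, against 48.8% of all genes. A difference of at least 1.5-fold towards replicate 1 was found in 28 members (60.9%) and in 1.91% of all genes, and one of at least 2-fold in 5 members, against 0.368% of all genes. None of the 46 was 1.5-fold higher on replicate 2, where 2.87% of all genes were. With 1 group of 2 arrays there was no test and there are no p-values: each difference rests on 1 array per side. The members were chosen with a lower level of cell cycle genes on replicate 2 already known. In RNA from whole cultures, fewer dividing cells and less mitotic mRNA per dividing cell cannot be told apart.

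Some cell type markers differed between the arrays as well, and their part in the mitotic difference was not tested. Of the 14 FRC markers 10 were lower on replicate 1, with a median difference of -0.13. Col3a1 had 10.05 and 11.30 on replicates 1 and 2 (-1.25), Des had 9.09 and 10.11 (-1.02), and Il7 had 8.66 and 7.74 (0.92). Among the endothelial markers, Flt4 (0.61) and Cdh5 (0.52) were higher on replicate 1, and Emcn (-0.76) and Tek (-0.76) were lower there. Of the 3 leukocyte markers with a mean above the limit, 0 differed by 1.5-fold. The markers named here were chosen after their values were seen.

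The SD of a member over the 2 arrays ran from 0.0014 to 0.86, against a median of 0.078 over the 13577 genes. Of the 46 members 39 had an SD above that median. With 2 arrays the SD follows from the size of the difference alone, so it is no separate measure. When all 13577 genes were ordered by their difference, 19 of the 46 members stood in the top 1% on the replicate 1 side and 34 in the top 5%. The 28 members made up 10.8% of the 259 genes that were at least 1.5-fold higher on replicate 1. The difference was similar at every level: the median of the members was 0.70 for 7 members with a mean below 8, 0.69 for 17 members between 8 and 9, 0.73 for 12 members between 9 and 10 and 0.61 for 10 members above 10. The medians of all genes in these ranges lay between -0.0076 and -0.0019.

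**Figure D2:**
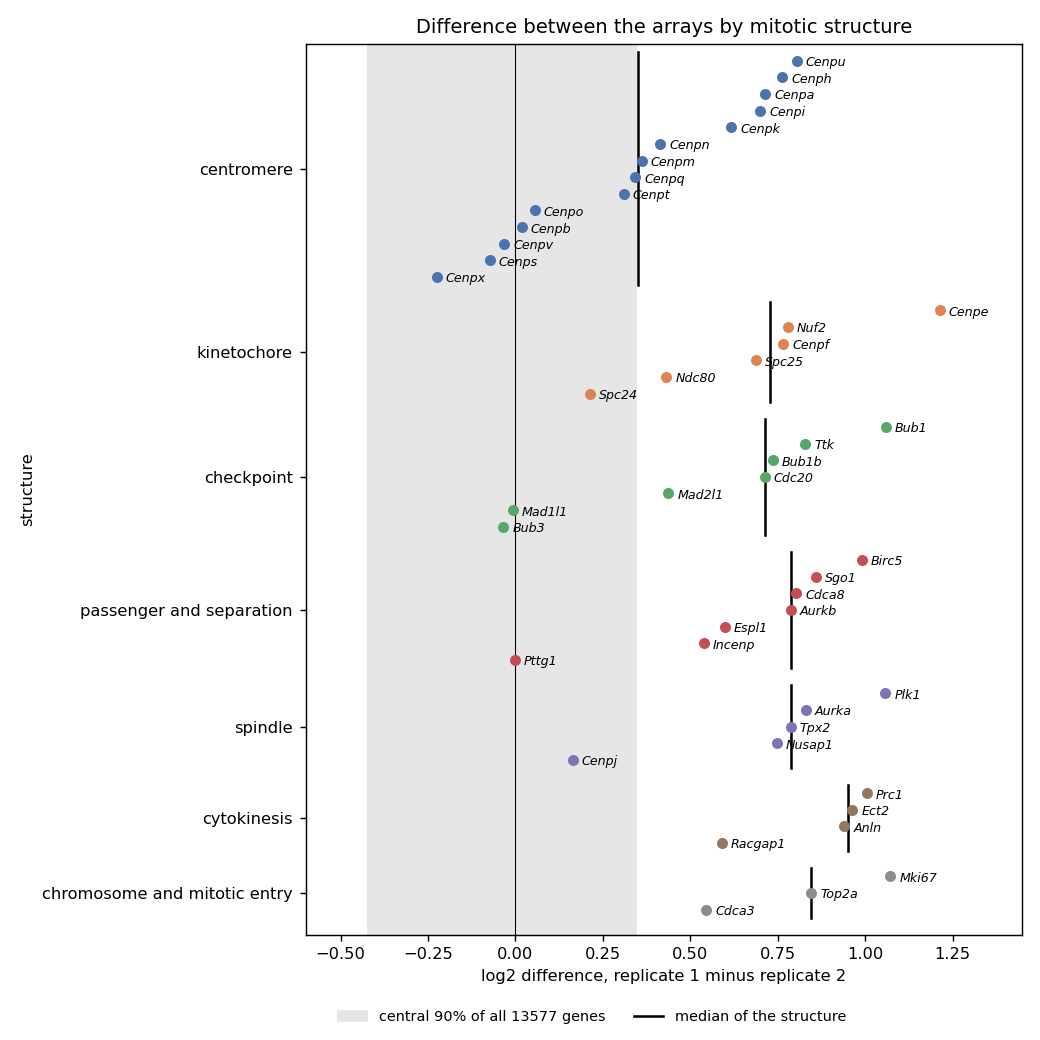
Log2 difference, replicate 1 minus replicate 2 (x axis), of the 46 members with a mean above the limit, grouped by structure (y axis), with the median of each structure as a black line and the central 90% of all 13577 genes in grey. The centromere genes reach from -0.22 to 0.80, while all 4 cytokinesis genes lie at 0.59 or higher.

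Centromere genes had the lowest median of the 7 structures. Of 17 centromere members 14 had a mean above the limit, and their median difference was 0.35, with 5 at least 1.5-fold higher on replicate 1. Cenpa, the centromeric histone itself, had 9.25 on replicate 1 and 8.54 on replicate 2, a 1.64-fold difference. Cenpb, which binds centromeric satellite DNA, had 9.55 and 9.53, and Cenpv, linked to pericentromeric chromatin, had 10.20 and 10.23, so neither differed by more than 0.04.

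The genes of the centromere-associated network are taken by subcomplex. In the group of Cenph, Cenpi, Cenpk and Cenpm, all 4 were higher on replicate 1. Cenph had 8.05 and 7.28 on replicates 1 and 2, Cenpi had 8.25 and 7.55, Cenpk had 8.06 and 7.45, and Cenpm had 8.81 and 8.45. Of the group around Cenpo, Cenpu differed most of all centromere genes (8.34 and 7.54, 1.75-fold), Cenpq had 8.71 and 8.37, and Cenpo had nearly equal levels of 8.78 and 8.72. Cenpn, which recognises CENP-A nucleosomes together with Cenpl, had 9.78 and 9.36. In the histone-fold group, Cenpt had 10.34 and 10.03, Cenps had 8.05 and 8.12, and Cenpx had 10.83 and 11.05. Cenpx thus had the largest difference towards replicate 2 among the members, 1.17-fold. Cenps and Cenpx proteins also serve in DNA repair with the Fanconi anaemia pathway. Outside the counted members, Cenpc1 had 9.13 and 9.02, and Itgb3bp was below the limit with 5.46 and 5.76.

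The outer kinetochore genes were all higher on replicate 1, with a median difference of 0.73 over 6 genes. Cenpe, a kinesin motor that carries chromosomes to the spindle equator, had 9.36 on replicate 1 and 8.15 on replicate 2, a mean of 8.76 ± 0.86 (SD, n = 2). Its 2.32-fold difference was the largest of all members and ranked 25 among the 13577 genes. Cenpf, a large protein of the fibrous corona, had 8.55 and 7.78. Within the 4-subunit Ndc80 complex, the differences were uneven: Nuf2 (8.82 and 8.04) and Spc25 (9.32 and 8.63) exceeded 1.5-fold, Ndc80 (8.68 and 8.25) was 1.35-fold and Spc24 (7.83 and 7.62) 1.16-fold higher on replicate 1.

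The checkpoint genes formed 2 sets. The kinase genes Bub1 (9.94 on replicate 1 and 8.88 on replicate 2) and Ttk (8.13 and 7.31), with Bub1b (9.18 and 8.44), whose product BUBR1 inhibits the APC/C, were 1.67-fold to 2.08-fold higher on replicate 1. Cdc20, the APC/C activator that the checkpoint holds back, had 9.90 and 9.18, and Mad2l1, which captures it, had 10.97 and 10.54. In contrast, Bub3, the partner that brings BUB1 to kinetochores, had 11.28 and 11.32, and Mad1l1, the platform of MAD2, had 9.88 and 9.89. Both were detected well above the stricter limit on both arrays, and their means were 11.30 ± 0.02 and 9.89 ± 0.01 (SD, n = 2).

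The chromosomal passenger complex corrects faulty attachments and later directs cytokinesis, and all 4 of its genes were higher on replicate 1. Birc5 (survivin) had 8.59 and 7.60 on replicates 1 and 2, a 1.99-fold difference, Cdca8 (borealin) had 8.98 and 8.18, Aurkb, the kinase, had 10.40 and 9.62, and Incenp, the scaffold, had 9.02 and 8.48. Among the genes that guard and cut sister chromatid cohesion, Sgo1 (shugoshin) had 9.0 and 8.14 and Espl1 (separase) had 8.59 and 7.99. Pttg1, which encodes securin, the inhibitor of separase, had equal levels of 9.91 and 9.91, the smallest difference of all members.

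Spindle genes were higher on replicate 1 with a median difference of 0.79 over 5 genes. Plk1, a kinase that acts from mitotic entry to cytokinesis, had 10.83 and 9.78 on replicates 1 and 2 (2.08-fold, mean 10.30 ± 0.75, SD, n = 2). Aurka, the spindle pole kinase, had 9.94 and 9.11, its activator Tpx2 had 10.66 and 9.87, and the microtubule bundling gene Nusap1 had 9.58 and 8.83. The exception was Cenpj, which despite its name encodes a centriole protein: it lay just above the limit with 7.35 and 7.18, a 1.12-fold difference.

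Cytokinesis genes had the highest median, 0.95 over 4 genes, and all 4 exceeded 1.5-fold. Next came the chromosome and mitotic entry genes (Mki67, Top2a and Cdca3), with 0.85 over 3 genes. This order rests on few genes and turned under the stricter limit, with 0.95 and 0.96. Prc1, which bundles the midzone of the anaphase spindle, had 10.04 and 9.04 on replicates 1 and 2. Ect2, the activator of RhoA at the cleavage furrow, had 10.32 and 9.35, its partner Racgap1 had 10.15 and 9.56, and the contractile ring scaffold Anln had 11.06 and 10.12. The proliferation marker Mki67, which coats mitotic chromosomes, had 10.52 and 9.45, the topoisomerase gene Top2a had 10.67 and 9.82, and Cdca3, which promotes mitotic entry, had 8.69 and 8.14.

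Some members had almost no difference between the arrays. In 7 of the 46 members the log2 difference was smaller than 0.1 in either direction. They were Cenpb, Cenpo, Cenps and Cenpv of the centromere, Bub3 and Mad1l1 of the checkpoint, and Pttg1 of the passenger and separation genes. Such small differences were common on these arrays: the lower and upper quartiles of all 13577 genes were -0.12 and 0.10. Those of the 46 members were 0.35 and 0.82, so small differences were rarer among the members. The share of all genes under 0.1 was not counted. The direction of Pttg1 and Mad1l1 turned to replicate 1 after quantile normalisation of the arrays (0.017 and 0.016), and that of Pttg1 after removal of a loess trend (0.0039), so no direction is given for these 2.

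The other genes of cell division followed the members unevenly. Over 10 lists of pathway genes that are no members, 89 of 104 genes with a mean above the limit were higher on replicate 1 and 35 were at least 1.5-fold higher there, with a median of 0.28. Of 11 genes listed as mitotic kinesins, all were higher on replicate 1 and 9 at least 1.5-fold, with a median of 0.95. They ranged from Kif24 (0.05), which passed the limit on 1 array, and Kif18a (0.48) to Kif23 (1.16), and Kif14 was below the limit. Of 10 genes for CDK1, its cyclins and regulators, 7 were at least 1.5-fold higher, with a median of 0.74. Cdc25b had 0.12 and Ccnb2, a B-type cyclin, had 0.95. Cdc25c had the largest difference of this list, 1.11, with 7.89 on replicate 1, but lay below the limit with 6.77 on replicate 2.

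Among genes that work on chromosomes, 8 of 8 condensin genes were higher on replicate 1, with a median of 0.62, from Ncaph2 (0.02) to Ncapg (0.91). The 13 cohesin genes had a median of 0.09, from Stag1 (-0.03) to Esco2 (0.59), the acetyltransferase that locks cohesin in S phase. The genes of the KNL1, MIS12, SKA and RZZ complexes, which complete the kinetochore, had a median of 0.51 over 11 genes, from Ska2 (0.03) to Kntc1 (1.05), and Ska1 and Spdl1 were not detected. The CENP-A loading genes Mis18a and Oip5 had 0.42 and 0.43. Centrosome and spindle assembly genes had a median of 0.28 over 21 genes, from Haus7 (-0.37) to Ckap2l (1.05).

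The APC/C subunit genes had nearly equal levels on both arrays. All 14 were detected, 6 were higher on replicate 1, and their differences lay between -0.15 (Anapc16) and 0.09 (Anapc1), with a median of -0.07. Of 4 partners, Ube2c, the ubiquitin-conjugating enzyme that starts its chains, had the largest difference, 0.89, and the coactivator Fzr1 the smallest, 0.12. Transcription factors that regulate the late cell cycle programme had a median of 0.20 over 10 genes, from Rbl2 (-0.29), a pocket protein of quiescent cells, to Foxm1 (0.80).

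DNA replication genes had a median of 0.28 over 42 genes, with 38 higher on replicate 1 and 4 at least 1.5-fold, from Rpa3 (-0.38) to Pole (0.73), and Gins1 and Gmnn were not detected. G1 cyclins and CDK inhibitors had a median of 0.02 over 14 genes, with 8 higher on replicate 1 and 0 at least 1.5-fold, from the inhibitor Cdkn2b (-0.74) to Ccne2 (0.42). Whether the medians of these lists differ from that of the members was not tested, since 2 arrays allow no test. Of 11 genes known from meiosis or as germ cell relatives of members, 2 were detected. They were Aurkc with 8.22 and 8.18 on replicates 1 and 2 and the shugoshin gene Sgo2a with 10.02 and 9.27. Only Sgo2a passed the stricter limit on both arrays, and the Aurkc value is a mean of 4 probe sets.

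**Figure D3:**
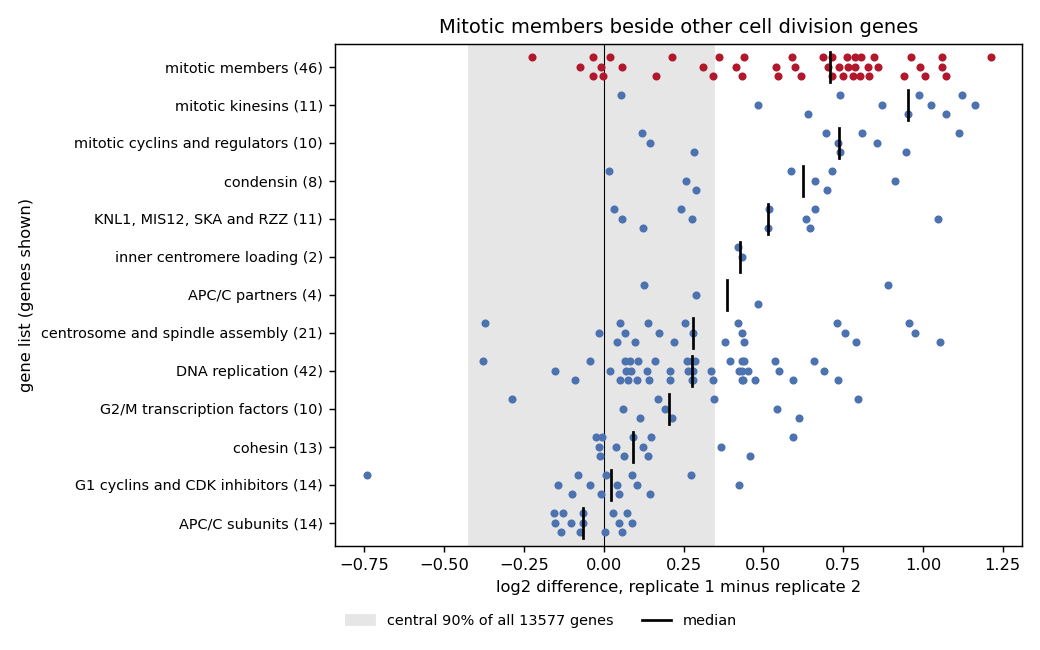
Log2 difference, replicate 1 minus replicate 2 (x axis), of the 46 members (red) and of genes in 12 other lists of cell division genes (blue), with list medians as black lines and the central 90% of all 13577 genes in grey. List medians run from 0.95 for the mitotic kinesins to -0.07 for the APC/C subunits, and the members lie at 0.71.

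The promoter elements introduced above were searched in windows from 250 bases before to 50 after each annotated start. RefSeq windows were found for 45 members and not for Aurkb, Incenp, Spc24 and Tpx2. A CHR (TTTGAA or TTTAAA, both strands) was present in 25 of the 45 members (55.6%), against 30.6% of all 27025 genes with a window and 21.8% of 10727 genes that are no members and had a mean above the limit. A CCAAT box (CCAAT, both strands) was present in 30 (66.7%), against 41.1% and 41.7%. Both elements in the same window were found in 21 members (46.7%), against 12.2% and 8.61%. The E2F letters TTCCCGC or TTGGCGC, on either strand, were present in 10 members (22.2%), against 7.79% and 13.3%. Among members, a CHR overlapped a CCAAT box in Cdca8 and Cenpw, and an E2F match overlapped a CCAAT box in Ect2. A match describes letters in a window and is not evidence of binding.

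Within the members, those with neither element had the lowest median difference. The 19 members with both elements and a mean above the limit had a median difference of 0.77, and 16 of them were at least 1.5-fold higher on replicate 1. The exceptions were Cdca3, Cenpn and Bub3. The 4 members with a CHR alone had a median of 0.69 and the 9 with a CCAAT box alone 0.70. The 10 members with neither had a median of 0.04. They included Cenpb, Cenpo, Cenps, Cenpv, Mad1l1 and Pttg1, all with differences under 0.1, but also Nuf2 (0.78) and Nusap1 (0.75). The classes also differed in structure. In the class with neither element, Cenpb, Cenpo, Cenps and Cenpv are centromere genes. With a CCAAT box alone all but Bub1 and Sgo1 are, and with both elements only Cenpa and Cenpn. Whether the split by element follows structure was not tested. Members with the E2F letters had the lower median: 0.41 for the 9 with them and 0.71 for the 33 without. Apart from Mki67 and Ect2, these 9 were centromere genes, the structure with the lowest median, so element and structure cannot be told apart here. Among the 10727 genes that are no members, 44 of 924 with both elements (4.76%) were at least 1.5-fold higher on replicate 1, against 128 of 9803 (1.31%) without both, while the medians of these genes were nearly equal, 0.0020 with both and -0.0059 without. With the E2F letters, 1.82% of the 10727 genes reached 1.5-fold, against 1.57% without them, with medians of 0.021 and -0.0086. Those 10727 genes include the other cell division genes.

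**Figure D4:**
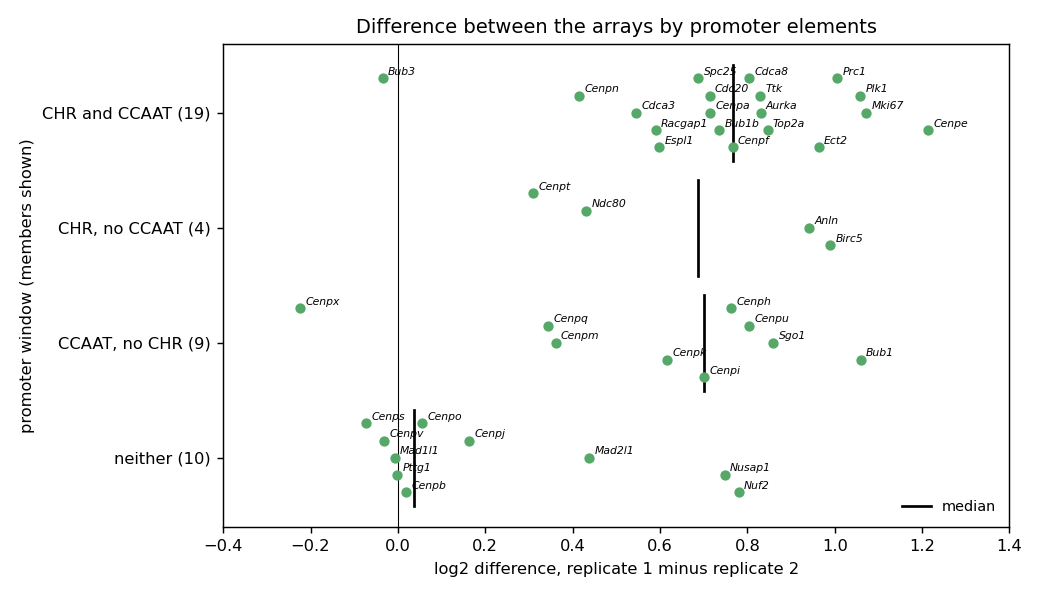
Log2 difference, replicate 1 minus replicate 2 (x axis), of 42 members with a promoter window and a mean above the limit, by the elements found in the window (y axis), with class medians as black lines. The median is 0.77 with both elements and 0.04 with neither, and Bub3 (both) and Nuf2 and Nusap1 (neither) stand apart from their classes.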

How the data were processed

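The authors deposited linear intensities, 1 for each probe set on each array. Per the submitters' processing notes they were made with RMA, with no version named. This method subtracts background, quantile-normalises and summarises probes, so small differences near background shrink and a change in total RNA is not seen. Replicate 1 spans intensities of 8.77 to 20232 and replicate 2 of 8.20 to 20996. The number of arrays, 2, limits the precision.

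Log2 values were computed here with Python 3.11.15 and pandas 2.3.3. The 21354 single-gene probe sets of the platform annotation were averaged by gene, and the other 3325 of 24679 were left out. Older symbols were matched through RefSeq (GRCm38.p6), which held all 49 members. The genes for the difference were filtered on the mean over both arrays, so the filter favours neither array. Members, structures and lists were chosen with earlier results of these data known, including a lower level of cell cycle genes on replicate 2. All members were named. Of each other list, the genes with the highest and lowest difference among those above the limit on both arrays were named. Genes below the limit were named where 5 or fewer were. Counting was tested on simulated data. Protein sequences were not used here. Alternatives are given in the closing section.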

Additional observations from a re-analysis of the deposited data

How the results depend on the processing

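Of the 49 members, 46 were detected, and the count was between 37 and 48 at the 99th and 90th percentile of the olfactory receptor probe sets, 46 without replicate 1 and 47 without replicate 2. With the limit from tissue-restricted genes it was 29. The count of members at least 2-fold higher on replicate 1 was 5 and came to 28 at 1.5-fold. The count of members higher on replicate 1 was 40 of 46 and came to 24 of 29 when only genes above the tissue-restricted limit on both arrays were used, where fewer members were counted. The median difference of the members lay between 0.69 and 0.72 under quantile normalisation, removal of a loess trend (span 0.3), other probe set choices, other filters and with arrays below the limit set to it. The probe set choice cannot change a member, since each had 1 probe set. Setting arrays below the limit to it cannot change these 46 members, since each passed the limit on both arrays. RMA already includes quantile normalisation, so repeating it changes little. With only genes above the tissue-restricted limit, the medians of the checkpoint genes (0.58), of the passenger and separation genes (0.54) and of the chromosome and mitotic entry genes (0.96) moved by more than the median SD of a gene. The cytokinesis genes (0.95) then no longer had the highest median of the structures. No paired analysis was possible because the series has 1 group. The 2 arrays give no estimate of the error of a difference.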
